A study of Mus musculus with 15 samples.

Results

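*Bcl6* and 8 genes of the Notch pathway were followed in RNA-Seq data from embryonic mouse brains that carry a K228E change in *Tbr1*. The 9 genes are *Bcl6*, the receptors *Notch1* and *Notch2*, the ligands *Dll1* and *Dll3*, and the target genes *Hes1*, *Hes5*, *Hey1*, and *Heyl*, out of 19475 genes in the table. *Bcl6* was listed because of its lower read count in homozygous mutants of these samples, and its values between genotypes are therefore a description without a test. The other 8 were listed by their role in the pathway, and all 9 had a mean of at least 5 normalized reads, the limit that 16507 genes met. Brains were taken from C57BL/6J embryos at E16.5 in 3 groups of 5 embryos each, namely WT embryos, heterozygotes that carry the change on 1 allele (*Tbr1* +/K228E), and homozygotes (*Tbr1* K228E/K228E), and each group held 3 females and 2 males. The mutation is a knock-in in exon 1, present in the whole animal, whose neomycin cassette was removed with protamine-Cre, and no other allele or treatment separates the groups. The tissue is given as brain in the sample labels and as forebrain in the methods of the study.

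Notch receptors are cut after they bind a Delta or Jagged ligand on a neighboring cell, and the freed intracellular part joins the DNA-binding protein RBPJ to switch on *Hes* and *Hey* genes. In the embryonic cortex these genes encode repressors that hold radial glia, the neural progenitors, in an undifferentiated state by keeping proneural genes such as *Neurog2* low. *Bcl6* encodes a zinc finger repressor that is known to promote neurogenesis by silencing Notch targets, *Hes5* among them. *Tbr1* encodes a T-box transcription factor of early-born cortical neurons, and K228E changes a residue of its T-box, the DNA-binding domain.

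Normalized read counts of *Tbr1* itself, the mutated gene, were 3517, 4122, 4871, 2097, and 3079 in WT embryos, ran from 4738 to 8543 in heterozygotes, and ran from 7148 to 16015 in homozygotes, so that every homozygote lay above every WT embryo. The values of each embryo summed to 30.5 to 31.8 M normalized reads, at an estimated depth of 26.2 to 38.0 M reads (M, megareads). The forebrain markers *Emx1*, *Emx2*, *Lhx2*, and *Six3* were detected in every group. The summed count of 15 *Hox* genes, which mark hindbrain and spinal cord, was 3274 in WT replicate 4 and 3952 in *Tbr1* +/K228E replicate 1, and at most 1141 in the other 13 embryos. Some fold changes, and some relations of *Bcl6* with other genes, are therefore also given without those embryos. That comparison was added after the data had been examined, and not every other result was repeated without them.

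*Bcl6* (ENSMUSG00000022508) is encoded on the minus strand of GRCm38 chromosome 16, between bases 23965052 and 23988852. Its normalized read count was 277, 306, 343, 136, and 195 in the WT embryos 1 to 5. The counts were 232, 383, 265, 284, and 237 in the *Tbr1* +/K228E embryos. They were 150, 91, 116, 116, and 113 in the *Tbr1* K228E/K228E embryos. All 5 homozygotes were below all 5 heterozygotes, and 1 WT embryo, replicate 4, fell inside the range of the homozygotes. Among all genes tested, 0.388% had homozygotes without overlap below heterozygotes and 0.273% had homozygotes without overlap below WT, and nothing is read from these shares, since *Bcl6* was chosen for its values in these embryos.

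Averaged over the 5 embryos of a group, the *Bcl6* count was 251 ± 84.6 in WT, 280 ± 61.0 in heterozygotes, and 117 ± 21.3 in homozygotes (mean ± SD). Homozygotes held 0.487 times the WT level, a log2 fold change of -1.04 (standard error 0.22), and 0.422 times the heterozygous level, a log2 fold change of -1.24 (standard error 0.22). Heterozygotes differed from WT by a log2 fold change of 0.21 (standard error 0.22), less than the spread between embryos of a genotype, which was 0.39 (SD, log2 scale). In bulk tissue, fewer cells that express a gene and less RNA per cell cannot be told apart.

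WT replicate 4, with the lowest *Bcl6* count of its group, also had the lowest summed count of the 4 forebrain markers, 4429, against 5190 to 7511 in the other embryos. Without the 2 embryos of high *Hox* counts, the log2 fold change of *Bcl6* was -1.24 between homozygotes and WT and -1.31 between homozygotes and heterozygotes. The log2 fold change between heterozygotes and WT was then 0.07, and without WT replicate 4 alone it was 0.01. The 22 cell-cycle markers, which follow *Bcl6* across embryos as given further on, were all detected. Their summed counts ranged from 20975 to 37035 in WT, from 27842 to 38368 in *Tbr1* +/K228E, and from 20421 to 34098 in *Tbr1* K228E/K228E embryos. All 22 were higher in heterozygotes than in WT (median log2 fold change 0.12). In homozygotes all 22 were lower than in heterozygotes (median -0.21), and 19 of 22 were lower than in WT (median -0.09). In limma 0 of 22 passed an adjusted p of 0.05 in each of these comparisons. With the cell-cycle score as a covariate, the log2 fold changes of *Bcl6* were -0.95 relative to WT and -1.005 relative to heterozygotes.

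**Figure D1:**
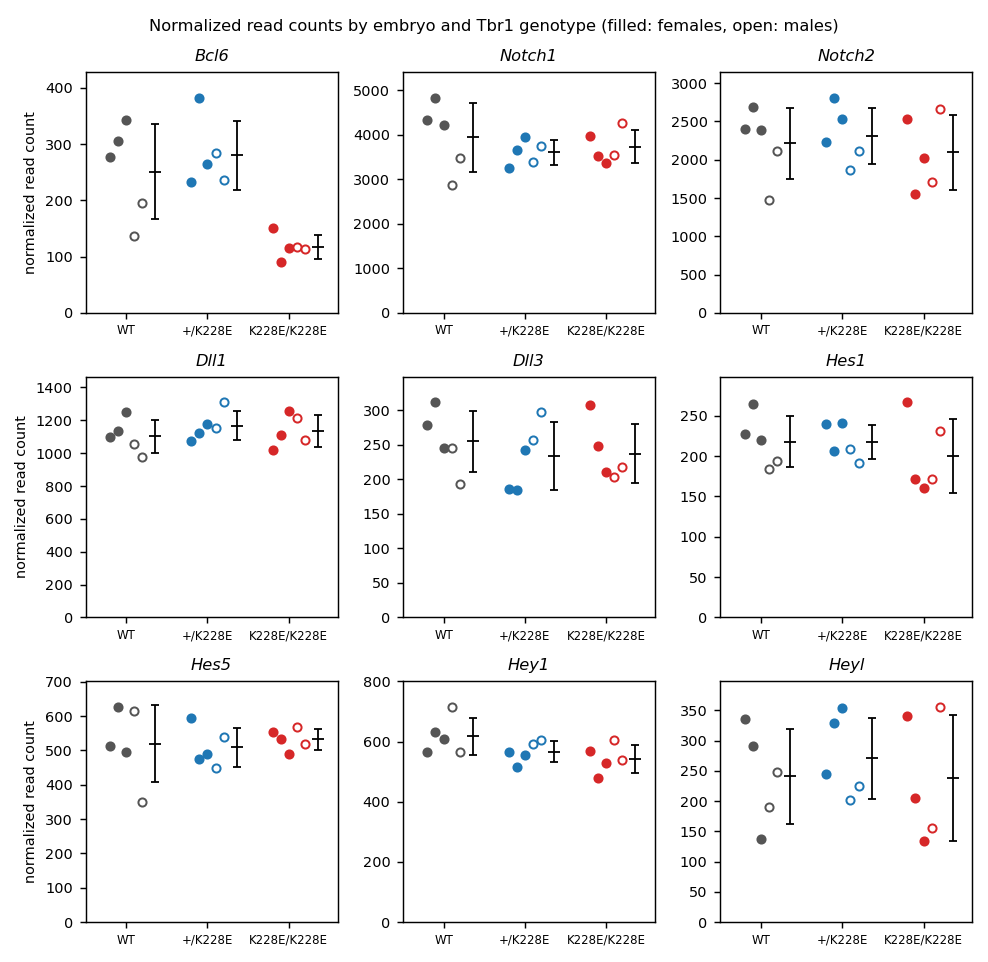
Normalized read counts (y axes, from 0) of the 9 genes in each embryo of the 3 *Tbr1* genotypes (x axes), with filled points for females, open points for males, and the mean ± SD of 5 embryos beside them. The *Bcl6* counts of the K228E/K228E embryos, 91 to 150, are all below the +/K228E embryos, whose lowest count was 232. Such a lack of overlap was found in 0.388% of all genes tested, and *Bcl6* was chosen for its values in these embryos. The ranges of the other 8 genes, which were listed by role, overlap between genotypes.

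A promoter window of *Bcl6* is shown because *Bcl6* is the member with the largest difference between genotypes and because T-box factors bind a known DNA motif. The RefSeq window on GRCm38.p6 runs from 250 bases before to 50 bases after the transcription start, at chr16:23988803-23989102 on the minus strand. The capitals mark its match to CACGTG, an E-box of the kind that Hey and Myc proteins bind, which begins 60 bases before the start.
Bcl6: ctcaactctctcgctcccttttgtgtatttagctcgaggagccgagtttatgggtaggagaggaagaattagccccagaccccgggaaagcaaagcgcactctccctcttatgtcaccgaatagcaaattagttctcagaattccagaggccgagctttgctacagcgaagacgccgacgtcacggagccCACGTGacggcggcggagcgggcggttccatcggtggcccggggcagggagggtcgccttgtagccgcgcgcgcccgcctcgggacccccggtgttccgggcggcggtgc
Of 32851 RefSeq promoter windows of the same length, 7.15% hold CACGTG, a palindrome. The T-box motif GGTGTGA was searched on both strands and is in 3.98% of all windows. These letters are in none of the 8 windows found for *Bcl6* (2 windows), *Notch1*, *Notch2*, *Dll1* (2 windows), *Dll3*, and *Hes5*. A BCL6 site, TTCCTAGAA, is in 0.411% of all windows and in none of the 8.

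The receptors showed no difference between genotypes that passed the test. *Notch1*, the main receptor of cortical progenitors, had normalized read counts of 4336, 4836, 4223, 2871, and 3476 in WT, of 3256, 3667, 3961, 3398, and 3748 in *Tbr1* +/K228E, and of 3980, 3515, 3369, 3547, and 4269 in *Tbr1* K228E/K228E embryos. Both mutant groups lay inside the WT range, and WT replicate 4 was the lowest of all 15 embryos. *Notch2*, which is likewise made by progenitors, had counts of 2403, 2690, 2387, 1473, and 2115 in WT, of 2233, 2810, 2537, 1870, and 2115 in *Tbr1* +/K228E, and of 2531, 1558, 2029, 1706, and 2667 in *Tbr1* K228E/K228E embryos. WT replicate 4 was again the lowest, and the 3 groups overlapped over nearly their whole ranges. Without the 2 embryos of high *Hox* counts, the log2 fold changes between homozygotes and WT were -0.17 in *Notch1* and -0.22 in *Notch2*, and neither passed the threshold. Relative to WT, homozygotes differed by -4.19% in *Notch1* (95% interval -19.2% to 13.6%) and by -5.41% in *Notch2* (95% interval -26.8% to 22.2%), with adjusted p = 1.00 for each (limma with Benjamini–Hochberg correction).

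Neither ligand passed the test. *Dll1*, a ligand on newborn neurons and intermediate progenitors, had counts of 1097, 1133, 1252, 1054, and 977 in WT, of 1073, 1123, 1177, 1153, and 1309 in *Tbr1* +/K228E, and of 1018, 1110, 1256, 1214, and 1082 in *Tbr1* K228E/K228E embryos. It varied least in range of the 9 genes, with 1.34 times between its lowest and highest embryo. *Dll3*, a divergent Delta protein that acts against Notch inside the cell that makes it, had counts of 279, 311, 245, 245, and 193 in WT, of 186, 184, 242, 257, and 298 in *Tbr1* +/K228E, and of 307, 249, 210, 203, and 218 in *Tbr1* K228E/K228E embryos. Each genotype held low and high embryos of *Dll3*. The difference between homozygotes and WT was 3.08% in *Dll1* (95% interval -7.58% to 15.0%) and -6.79% in *Dll3* (95% interval -26.4% to 18.0%) (adjusted p = 1.00 for each, limma with Benjamini–Hochberg correction).

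The targets are the readout of the pathway, and *Hes5* is among the Notch targets that BCL6 is known to silence. *Hes5*, the target most tied to Notch signaling in cortical progenitors, had counts of 513, 626, 495, 616, and 350 in WT, of 594, 475, 488, 450, and 539 in *Tbr1* +/K228E, and of 554, 535, 490, 568, and 518 in *Tbr1* K228E/K228E embryos. The homozygotes all lay inside the WT range, with a mean of 533 ± 30.7 (SD, n = 5) against 520 ± 112 (SD, n = 5). The difference was 4.49%, and its 95% interval of -13.8% to 26.6% covers both a lower and a higher level. It changed sign without WT replicate 5, the lowest embryo, where the log2 fold change was -0.07. *Hes5* was thus not detectably higher in homozygotes than in WT embryos (adjusted p = 1.00, limma with Benjamini–Hochberg correction). Whether BCL6 acts on *Hes5* in these brains was not tested.

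The promoter window of *Hes5* is shown since it is the sole one of the 8 windows with the core of the RBPJ site, through which Notch acts. It lies at chr4:154960673-154960972 on the plus strand of GRCm38.p6, and the capitals mark matches to TGGGAA, 1 on the reverse strand that begins 226 bases before the start and 1 on the forward strand that begins 82 bases before it.
Hes5: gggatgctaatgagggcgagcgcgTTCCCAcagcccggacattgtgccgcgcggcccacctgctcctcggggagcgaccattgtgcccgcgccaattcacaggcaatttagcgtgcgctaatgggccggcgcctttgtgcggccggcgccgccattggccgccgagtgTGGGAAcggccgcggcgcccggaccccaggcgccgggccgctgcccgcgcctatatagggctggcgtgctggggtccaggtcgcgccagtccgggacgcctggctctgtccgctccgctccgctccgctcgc
TGGGAA is in 25.6% of all promoter windows on either strand, so that its presence alone is common. Windows of *Hes1*, *Hey1*, and *Heyl* were not used here.

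*Hes1*, a target whose level is known to oscillate in progenitors, had counts of 228, 264, 220, 184, and 194 in WT, of 239, 207, 241, 209, and 192 in *Tbr1* +/K228E, and of 267, 171, 161, 172, and 231 in *Tbr1* K228E/K228E embryos. Among the homozygotes, 3 were below every WT embryo and 1 was above every WT embryo, and the difference was -9.20% (95% interval -26.4% to 12.1%; adjusted p = 1.00, limma with Benjamini–Hochberg correction). *Hey1*, a related repressor, had counts of 566, 631, 607, 715, and 566 in WT, of 564, 514, 557, 593, and 603 in *Tbr1* +/K228E, and of 568, 479, 527, 604, and 537 in *Tbr1* K228E/K228E embryos. Its log2 fold change in homozygotes was -0.18, with a standard error of 0.08. *Hey1* was the sole gene among these with an unadjusted p under 0.05 (0.031 in limma), and its adjusted p was 1.00. Of all genes tested, 3.23% had an unadjusted p under 0.05 in that comparison.

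*Heyl*, a target that mural cells of blood vessels express strongly, had counts of 336, 292, 138, 190, and 248 in WT, of 244, 329, 355, 201, and 225 in *Tbr1* +/K228E, and of 340, 205, 134, 155, and 356 in *Tbr1* K228E/K228E embryos. It had the widest spread of the 9 genes within a genotype, 0.51 (SD, log2 scale), and 95% intervals of -37.8% to 47.9% for homozygotes against WT. With 5 embryos per group, changes in *Heyl* within that interval are not excluded. The size of change that would pass the adjusted threshold was not computed.

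Of the 8 genes other than *Bcl6*, 0 passed an adjusted p of 0.05 in limma between homozygotes and WT, where 0.127% of all genes tested passed, and 1 of 8 had an unadjusted p under 0.05. Their log2 fold changes ran from -0.18 to 0.06 with a median of -0.07, beside a median of -0.00 over all genes, and 6 were below 0. In heterozygotes 0 of 8 passed, as did 0% of all genes tested, and 1.79% of all genes had an unadjusted p under 0.05. Their log2 fold changes ran from -0.13 to 0.20, and none of the 8 had an unadjusted p under 0.05. Between homozygotes and heterozygotes 0 of 8 passed, against 0.0788% of all genes, and 0 of 8 had an unadjusted p under 0.05, against 3.3% of all genes. Their log2 fold changes ran from -0.26 (*Heyl*) to 0.07 (*Hes5*). The 3 comparisons share embryos, so that their values are not independent of one another.

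**Figure D2:**
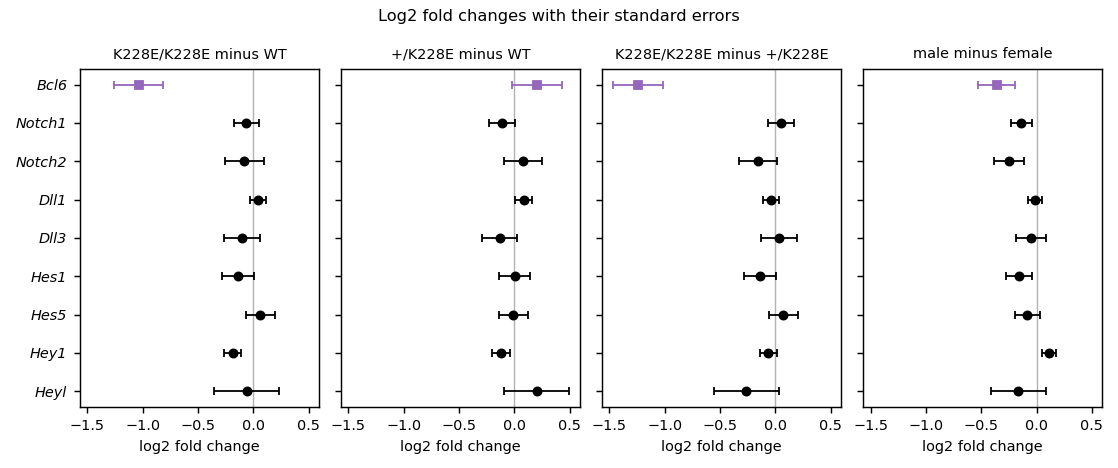
Log2 fold changes (x axes) with their standard errors (bars) of the 9 genes (rows) in the 3 genotype comparisons and between males and females. *Bcl6* (squares), which was chosen from these genotypes, is at -1.04 and -1.24 in the comparisons that include K228E/K228E embryos, whereas the 8 other genes (circles) lie between -0.26 and 0.20 in all genotype comparisons.

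Levels of different genes were compared as normalized reads per kilobase of exon. Each value was divided by the sum of such values over genes in the same embryo. The resulting shares are given in ppm. In WT embryos the order was *Hes5* (46.8 ± 9.76, SD, n = 5), *Notch1* (34.1 ± 6.66), *Dll1* (32.1 ± 2.88), *Notch2* (25.2 ± 5.28), *Hey1* (23.2 ± 2.16), *Hes1* (13.1 ± 1.87), *Dll3* (11.0 ± 1.84), *Heyl* (5.78 ± 1.89), and *Bcl6* (4.61 ± 1.55). The ranges of neighbors in this order overlapped, with 2 exceptions, as every WT embryo had more *Hey1* than any had *Hes1*, and more *Dll3* than any had *Heyl*. *Bcl6* was the lowest of the 9 in all genotypes. It was at 2.12 ± 0.366 (SD, n = 5) in homozygotes, where its range no longer overlapped that of *Heyl*, at 5.66 ± 2.45 (SD, n = 5).

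The wider pathway was described with a list of 60 further genes, of which 59 had a mean of at least 5. *Hes3*, a target of early neuroepithelium, was under that limit, with counts of 0 to 10.1. In limma 0 of 59 passed the threshold in each genotype comparison, and the number with an unadjusted p under 0.05 was 2 between homozygotes and WT, 1 between heterozygotes and WT, and 4 between homozygotes and heterozygotes, beside 3.23%, 1.79%, and 3.3% of all genes tested. Between homozygotes and WT, 26 had a log2 fold change above 0 and 33 below, with a median of -0.01, and 58 of 59 differed by less than 0.25 on the log2 scale. Ligands ran from -0.11 (*Dlk1*, an imprinted decoy ligand) to 0.08 (*Jag2*), and the ubiquitin ligases that activate ligands from -0.02 (*Mib1*) to 0.10 (*Mib2*). The receptors *Notch3*, found on mural cells and progenitors, and *Notch4*, found on endothelium, were at -0.10 and -0.08. Enzymes that modify the receptor with sugars ran from -0.04 (*Lfng*) to 0.02 (*Poglut1*). The *Bcl6* relative *Bcl6b* was at -0.02.

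Proteases that cut the receptor ran from -0.11 (*Furin*) to 0.38 (*Aph1c*). *Aph1c*, a subunit of the gamma-secretase complex, had counts of 108, 106, 111, 89, and 94 in *Tbr1* +/K228E and of 171, 190, 142, 117, and 127 in *Tbr1* K228E/K228E embryos without overlap, as in 0.491% of all genes, but WT replicate 4 stood at 201 above all of them. Its log2 fold change between these mutant groups was 0.53 (unadjusted p = 0.020, limma; adjusted p = 0.996), and *Aph1c* is nearly identical in sequence to *Aph1b*, so that its count is uncertain. In the nuclear complex, *Maml2*, a coactivator that binds Notch on RBPJ, had counts of 634, 599, 543, 601, and 501 in WT, of 493, 508, 493, 531, and 498 in *Tbr1* +/K228E, and of 485, 461, 537, 468, and 499 in *Tbr1* K228E/K228E embryos. It had the smallest p of the list in homozygotes (log2 fold change -0.23, unadjusted p = 0.0037, limma; adjusted p = 0.735) and was at -0.18 in heterozygotes (unadjusted p = 0.014). *Rbpj*, the DNA-binding partner itself, was at -0.02.

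Corepressors ran from -0.15 (*Tle4*) to 0.10 (*Bcor*, a partner of BCL6). *Tle4*, a Groucho corepressor that deep-layer cortical neurons also express, had counts of 3374 to 3887 in heterozygotes and of 2777 to 3142 in homozygotes without overlap, as in 0.388% of all genes in that direction (log2 fold change -0.27, unadjusted p = 0.0020, limma; adjusted p = 0.593). The WT embryos, at 2846 to 4022, overlapped with both. *Tle3*, another corepressor, was also lower in homozygotes than in heterozygotes without overlap (log2 fold change -0.12, unadjusted p = 0.064, limma). *Sirt1*, a deacetylase known to act with BCL6 on *Hes5*, was at 0.08 relative to WT and at 0.13 relative to heterozygotes (unadjusted p = 0.047, limma; adjusted p = 0.996). Inhibitors of the pathway ran from -0.13 (*Fbxw7*) to 0.11 (*Dtx4*). *Fbxw7*, which marks intracellular Notch for degradation, was at -0.13 relative to WT (unadjusted p = 0.029, limma) and at -0.16 relative to heterozygotes (unadjusted p = 0.011).

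Further targets ran from -0.09 (*Hey2*) to -0.05 (*Sox9*). Of the proneural genes, which Hes proteins repress, *Neurog1* was at -0.24 and *Neurog2* at 0.06 in homozygotes.

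**Figure D3:**
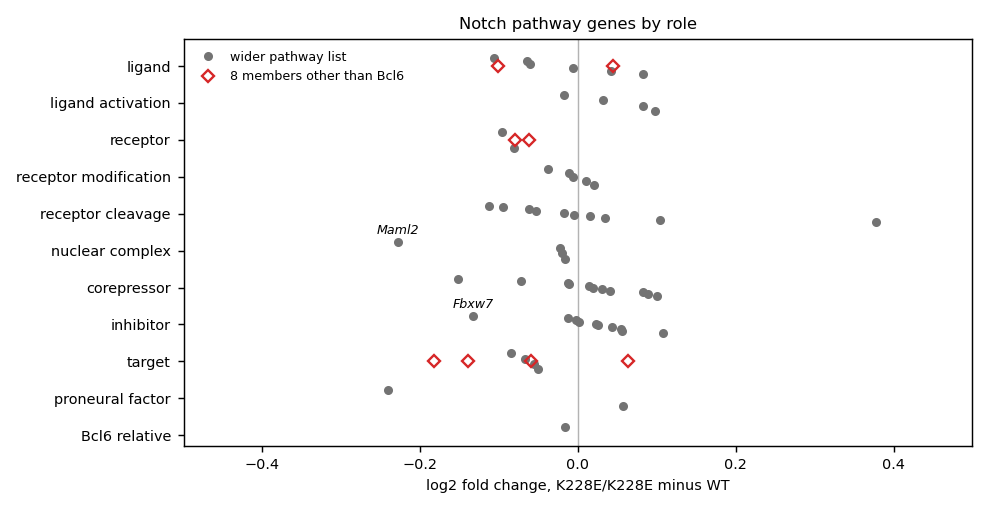
Log2 fold changes between K228E/K228E and WT embryos (x axis) of 59 genes of the wider Notch pathway list (gray points) and of the 8 members other than *Bcl6* (red diamonds) by role (rows), with the names of the gray points whose unadjusted p was under 0.05. Of the 59 genes, 58 lie within 0.25 of 0, and *Aph1c* is at 0.38.

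How the 9 genes vary together was examined in the deviations of log2 values from the genotype means over 15 embryos, which removes the genotype differences that chose *Bcl6*. Relations of *Bcl6* with the 8 other genes were computed, and 3 of 8 had a permutation p under 0.05 without adjustment. *Bcl6* followed *Notch2* (Pearson's r = 0.753, permutation p = 0.0023; Spearman's rho = 0.596, permutation p = 0.030) and *Notch1* (r = 0.742, permutation p = 0.0155; rho = 0.604, permutation p = 0.058). The relation with *Hes1* was weaker (r = 0.507, permutation p = 0.0499; rho = 0.457, permutation p = 0.105). Without WT replicates 3 and 4, whose *Bcl6* values are farthest from the median, r was 0.655 for *Notch2*, 0.558 for *Notch1*, and 0.481 for *Hes1*. The relations of *Bcl6* with *Hes5* (r = -0.072, permutation p = 0.868; rho = -0.121, permutation p = 0.712), *Hey1* (r = -0.274, permutation p = 0.425; rho = -0.043, permutation p = 0.895), and *Heyl* (r = 0.199, permutation p = 0.515; rho = 0.064, permutation p = 0.835) missed that threshold. So did those with *Dll1* (r = 0.239, permutation p = 0.465; rho = 0.321, permutation p = 0.302) and *Dll3* (r = 0.185, permutation p = 0.541; rho = 0.179, permutation p = 0.551).

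Many genes shared this pattern. Of 13541 other genes with a mean of at least 50, 12.3% had as large an absolute r with *Bcl6* as *Notch2*, 13.3% as large as *Notch1*, and 38.0% as large as *Hes1*. The relations also moved with the score of the 22 cell-cycle markers, the mean of their log2 values. That score correlated with *Bcl6* at r = 0.878 (permutation p = 0.00017; rho = 0.857, permutation p = 0.00099) and with *Notch2* at r = 0.886 (permutation p = 0.00004; rho = 0.839, permutation p = 0.00033), and r was 0.806 and 0.785 without the 2 farthest embryos. With the cell-cycle score removed as well, r of *Bcl6* was -0.110 with *Notch2* (permutation p = 0.698) and 0.149 with *Notch1* (permutation p = 0.612). With the sex of the embryos removed, r was 0.683 with *Notch2* (permutation p = 0.0085) and 0.693 with *Notch1* (permutation p = 0.0110), but 0.396 with *Hes1* (permutation p = 0.165). With the hindbrain and meningeal scores removed, r was 0.834 with *Notch2* (permutation p = 0.00065), 0.773 with *Notch1* (permutation p = 0.0315), 0.745 with *Hes1* (permutation p = 0.0122), and 0.769 with *Heyl* (permutation p = 0.0047). Without the 2 embryos of high *Hox* counts, r was 0.608 with *Notch2* (permutation p = 0.029), 0.466 with *Notch1* (permutation p = 0.177), and 0.505 with *Hes1* (permutation p = 0.090).

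Among the other pairs, *Notch1* and *Notch2* had the highest r, 0.806, and *Notch2* followed *Hes1* at 0.729. *Hes5* was closest to *Hey1* (r = 0.525), and *Dll1* ran against *Heyl* (r = -0.602). These pairs share their libraries, and they are given as descriptions. Their r values include the embryos of high *Hox* counts, and whether they hold without those embryos was not tested.

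*Heyl* followed markers of vessels and meninges. Its r was 0.943 with the score of 10 blood vessel markers (permutation p = 0.00001, the smallest that 100000 resamples can give; rho = 0.971) and 0.929 with the score of 12 meningeal markers (permutation p = 0.00001; rho = 0.989). Without the 2 farthest embryos r was 0.929 and 0.901. All 12 meningeal markers were detected in every group, and their summed counts ranged from 1220 to 36566 in WT, from 5366 to 22983 in *Tbr1* +/K228E, and from 1811 to 27639 in *Tbr1* K228E/K228E embryos. The lowest sums were those of WT replicate 3 and of *Tbr1* K228E/K228E replicates 3 and 4, which were also the 3 embryos with the lowest *Heyl* counts, 134 to 155. With the hindbrain and meningeal scores as covariates, the log2 fold change of *Heyl* in homozygotes was 0.11 instead of -0.06. *Dll1* ran against the meningeal score (r = -0.725, permutation p = 0.0093; rho = -0.543, permutation p = 0.064; r = -0.518 without the 2 farthest embryos). *Bcl6* also followed the forebrain score (r = 0.711, permutation p = 0.025) and the radial glia score (r = 0.522, permutation p = 0.041). It ran against the neuron score (r = -0.549, permutation p = 0.045). Without the 2 farthest embryos these r were 0.288, 0.405, and -0.282. *Notch1* and *Notch2* also ran against the neuron score (r = -0.765 and -0.626, permutation p = 0.00052 and 0.020). In all, 54 relations of the 9 genes with 6 marker scores, without that of hindbrain and spinal cord, were computed. Of these, 16 had a permutation p under 0.05 without adjustment.

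**Figure D4:**
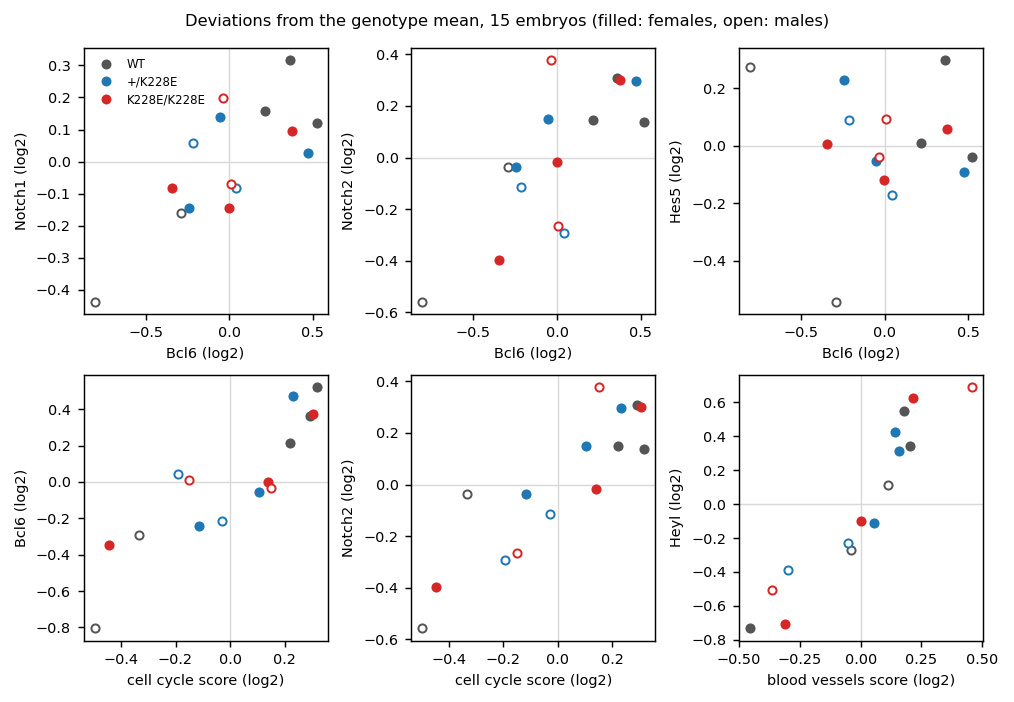
Deviations from the genotype mean on the log2 scale in 15 embryos, colored by *Tbr1* genotype, with filled points for females and open points for males. *Notch1* and *Notch2* follow *Bcl6* (r = 0.742 and 0.753) and *Hes5* does not (r = -0.072) in the upper row, and the lower row shows *Bcl6* and *Notch2* against the cell-cycle score (r = 0.878 and 0.886) and *Heyl* against the blood vessel score (r = 0.943).

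The genes most like *Bcl6* across embryos, among the 13541, were *Eif2a* (r = 0.956), *Rad54l* (0.951), *Rad54b* (0.948), *Tmem177* (0.947), and *Hax1* (0.944), and those that ran most against it were *Slc27a4* (r = -0.961), *Mid2* (-0.943), and *Klhl18* (-0.935). *Rad54l* and *Rad54b* encode proteins of DNA repair by recombination. These 8 genes were picked on deviations from the genotype means, which leave genotype differences out. Their log2 fold changes in homozygotes relative to WT lay between -0.12 (*Tmem177*) and 0.23 (*Rad54b*). The median absolute log2 fold change over all genes tested was 0.056. The genes most like *Hes5* were *Cacng5* (r = 0.874), *Skor1* (0.844), *Nkain4* (0.841), *Meis1* (0.840), and *Coq9* (0.823), and *Sim1* (-0.870), *Kbtbd3* (-0.845), and *Lins1* (-0.833) ran most against it. Both lists include the embryos of high *Hox* counts, and whether they hold without those embryos was not tested.

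Between males and females of the same genotype, a contrast that the choice of *Bcl6* did not use, 0 of 9 genes passed the threshold, against 0.0788% of all genes tested. *Bcl6* had the largest difference of the 9, with a log2 fold change of -0.36 (standard error 0.17) in males (unadjusted p = 0.049, limma; adjusted p = 0.451), while 11% of all genes had an unadjusted p under 0.05. In WT both males, at 136 and 195, were below the 3 females, at 277 to 343, whereas males and females overlapped in both mutant groups. The share of all genes with such a separation in WT was not computed, and nothing is read from it. Without WT replicate 4 the log2 fold change was -0.22, and with the cell-cycle score as a covariate it was -0.04. *Notch2* was at -0.25, and *Hey1*, at 0.11, was the sole member with a higher mean in males.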

How the data were processed

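RNA was sequenced from brains of 15 E16.5 embryos. Per the methods of the study, a TruSeq RNA Sample Prep Kit v2 and paired-end Illumina sequencing were used, and the authors estimated transcript abundance with Salmon 0.11.2 on GRCm38 with GC bias correction, summed it per gene with tximport, and scaled it with DESeq2 1.22.2 size factors in R 3.5.3. The values that the authors deposited are thus a normalized signal per gene, called a normalized read count here, and whole reads could not be recovered. Groups and sex came from the sample labels, which give no litter or batch, so that p-values measure the spread between these embryos. Depth was estimated from the step of the lowest values and limits mainly genes with low counts.

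All embryos entered a single limma 3.58.1 fit (R 4.3.3, eBayes with trend) of log2(value + 1), so that fold changes of low genes are understated. P-values were adjusted over 16507 genes, those of mean 5 or more, by the Benjamini–Hochberg correction, with a threshold of 0.05. Intervals are 95% intervals of that fit. Relations used 100000 permutations of embryos within genotypes and are two-sided. The fit and the permutation test were tested on simulated data. Members, pathway and marker lists, and the tests were chosen with earlier results of these data known. Some genes of these lists are not reported here and were left out of the counts and scores over the lists. The text names the 9 members, pathway genes with an unadjusted p under 0.05 in a genotype comparison, and the extremes of each role group. It also names *Tle3*, for its lack of overlap, and the 5 genes most like and 3 least like *Bcl6* and *Hes5*. Coordinates are from GENCODE M21 and promoters from RefSeq. No column was left unmapped or identical to another. Alternatives were other pseudocounts, filters, and scalings, sex, the replicate number, marker scores as covariates, robust eBayes, the 2 compared genotypes alone, an empirical null, and each embryo left out.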

Additional observations from a re-analysis of the deposited data

How the results depend on the processing

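Beside the 21 genes that passed between homozygotes and WT embryos, 12 passed in a fit of the 2 compared genotypes alone, 43 with an empirical null, and 12 to 22 with an embryo left out, with the largest shifts without WT replicates 1 or 2 or homozygous replicates 3 or 4. Between homozygotes and heterozygotes 13 passed, against 0 with an empirical null and 6 to 17 with an embryo left out, where every mutant embryo left out lowered the count. Between males and females 13 passed, against 7 with an empirical null, 20 with the hindbrain and meningeal scores as covariates, and 10 to 24 with an embryo left out, the latter without homozygous replicate 2. Between heterozygotes and WT embryos 0 passed in limma under all 30 settings, with 193 to 455 genes at an unadjusted p under 0.05 in those that left out no embryo. The cause of these shifts was not tested. None of the 8 genes other than *Bcl6* passed in a genotype comparison under any of 696 limma refits, whose smallest adjusted p was 0.600. The log2 fold change of *Bcl6* between homozygotes and WT embryos ran from -1.24 to -0.91. That range is a description and no test of the difference, since *Bcl6* was chosen for its values in these same embryos.

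Same-numbered embryos are different animals. Their deviations correlated at 0.024 to 0.506 between homozygotes and WT embryos, with 4 of 5 above 0.1 and 2 of 5 highest with their own number. The range was -0.208 to 0.224 between heterozygotes and WT embryos, with 1 of 5 highest with its own number. It was -0.232 to 0.349 between homozygotes and heterozygotes, with 2 of 5 highest with their own number. As not all of these correlations were above 0.1, the numbers were not taken as pairs. With the replicate block, 16 genes passed between homozygotes and WT embryos, 0 between heterozygotes and WT embryos, and 2 between homozygotes and heterozygotes. A block by number could not be fitted between males and females, since each number is of a single sex.

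Small log2 fold changes of members turned sign, and none of these passed the threshold. With the hindbrain and meningeal scores as covariates, *Dll1* was at -0.0045 and *Heyl* at 0.11 in homozygotes against WT embryos, *Heyl* was at 0.11 in homozygotes against heterozygotes, and in heterozygotes against WT embryos *Notch2* was at -0.042, *Hes1* at -0.032, *Hes5* at 0.088, and *Heyl* at -0.0021. With the cell-cycle score, *Notch2* was at -0.045 and *Hes1* at -0.063 in heterozygotes against WT embryos, and *Notch2* at 0.034 in homozygotes against heterozygotes. With quantile normalization *Hes5* was at 0.0017 in heterozygotes against WT embryos. Without the 2 embryos of high *Hox* counts, *Notch2* was at -0.053, *Hes1* at -0.091, and *Hes5* at 0.0039 in heterozygotes against WT embryos, and *Dll3* at -0.045 in homozygotes against heterozygotes. With each embryo left out in turn, homozygotes against WT embryos ran from -0.17 to 0.017 in *Notch1*, -0.22 to 0.019 in *Notch2*, -0.072 to 0.14 in *Hes5*, and -0.24 to 0.12 in *Heyl*. Heterozygotes against WT embryos ran from -0.062 to 0.16 in *Notch2*, -0.055 to 0.074 in *Hes1*, and -0.14 to 0.067 in *Hes5*. Homozygotes against heterozygotes ran from -0.00066 to 0.085 in *Notch1*, -0.077 to 0.0026 in *Dll1*, and -0.065 to 0.13 in *Dll3*.

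Of the 8 relations of *Bcl6*, 3 had a permutation p under 0.05, against 0 with the cell-cycle score removed, 4 with the hindbrain and meningeal scores removed, 2 with sex removed, 2 with a pseudocount of 10, 3 with upper quartile rescaling, 1 without the 2 embryos of high *Hox* counts, and 1 to 3 with an embryo left out, where *Notch2* alone was under it without WT replicate 4 and without WT replicate 5. With the cell-cycle score removed, r turned to -0.110 with *Notch2*, -0.016 with *Dll1*, -0.109 with *Dll3*, -0.100 with *Hes1*, and -0.210 with *Heyl*. With the hindbrain and meningeal scores removed, r was 0.262 with *Hes5* and 0.769 with *Heyl*. Without the 2 embryos of high *Hox* counts r was 0.438 with *Hes5* and 0.207 with *Hey1*, and with an embryo left out it ran from -0.447 to 0.291 with *Hes5* and from -0.489 to 0.202 with *Hey1*, above 0 for each without WT replicate 4. Of 30 groups of 5 embryos, no member and not *Tbr1* had an embryo past Dixon's critical value of 0.71. With 5 embryos per group, the 95% intervals of the 8 genes allow changes from about 15% (*Dll1*) to 48% (*Heyl*) in homozygotes.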
